A study of Mus musculus with 11 samples.

Results

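The acid-secreting machinery of the gastric parietal cell was followed through 10 genes in bulk RNA sequencing of mouse gastric corpus mucosa. The genes were taken by name from the deposited count table, in which all 10 of them were found among 34866 gene identifiers, and all 10 were among the 14889 genes abundant enough to test. They encode the H+/K+-ATPase subunits Atp4a and Atp4b, the anion transporters Slc26a7, Slc26a9 and Slc4a2, the sodium-proton exchanger Slc9a4, the carbonic anhydrase Car2, the chloride intracellular channel protein Clic6, and the inward rectifier potassium channel subunits Kcnj15 and Kcnj16.

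The 11 samples carried 4 genotypes. Control mucosa was wild type (WT, n = 2), and 3 samples each came from the lines ATP4B-DTR, from GIF-DTR, and from GIF/ATP4B-DTR, which carries both. DTR commonly stands for the diphtheria toxin receptor, and the submitters describe the lines as models for ablating chief and parietal cells. By their names the receptors are tied to Atp4b, a parietal cell gene, and to Gif, the intrinsic factor gene that mouse chief cells express. The construct, any toxin dose, the interval to collection, and the age and sex of the animals are not given in the sources used here. The titles number each line sample separately without saying that a number marks an animal, and nothing is said of the controls. Y-linked expression, given below, shows that the ATP4B-DTR samples were not all from 1 animal. Elsewhere the p-values may measure only technical spread.

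As background, a parietal cell secretes acid by exchanging luminal potassium for protons through the H+/K+-ATPase, whose catalytic subunit is Atp4a and whose glycosylated partner is Atp4b. Potassium channels return potassium to the lumen and anion channels pass chloride alongside the protons. Carbonic anhydrase supplies protons and bicarbonate from carbon dioxide, and basolateral anion exchange carries the bicarbonate out to the blood in return for chloride.

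Levels are given in CPM, counts per mega-count of library, scaled between libraries with TMM factors (trimmed mean of M-values). A gene was called when its Benjamini-Hochberg adjusted p, over all genes tested with edgeR's quasi-likelihood test, was under 0.05. Samples held 20.7 to 27.9 M counts, and 3 counts corresponded to 0.107 to 0.166 CPM. In control, 9 parietal cell genes outside ion transport summed to 2238 to 2839 CPM, most of it from the ezrin gene Ezr (2201 and 1652 CPM). They summed to 1626 to 1858 in ATP4B-DTR, 1480 to 1771 in GIF-DTR and 1311 to 1427 in GIF/ATP4B-DTR. Summed chief cell markers (6 genes in the table, with the lipase gene Lipf at 0 in every sample) ranged over 85900 to 192500 CPM in control, 17000 to 62020 in ATP4B-DTR, 5108 to 22620 in GIF-DTR and 2823 to 12430 in GIF/ATP4B-DTR. Most of the control sums came from Pgc, at 70810 and 154900 CPM. Of the 5 tested, 0, 3 and 3 were called lower in the lines in this order, beside 9.39%, 6.82% and 15.4% of all genes tested. Smooth muscle markers (5 genes) summed to 329 and 1961 CPM in the controls, and ranged over 455 to 1074 in ATP4B-DTR, 385 to 2247 in GIF-DTR and 225 to 561 in GIF/ATP4B-DTR. Y-linked genes summed to 129 CPM or more in the controls, in ATP4B-DTR 1 and in all 3 GIF/ATP4B-DTR samples. They summed to 4.92 CPM or less in ATP4B-DTR 2 and 3 and in all 3 GIF-DTR samples, so GIF-DTR and the difference in Y-linked expression from control cannot be told apart.

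Against control, 8 of the 10 genes fell in ATP4B-DTR, 5 fell in GIF-DTR and 8 fell in GIF/ATP4B-DTR, and none rose past the threshold. Of all genes tested, 9.39%, 6.82% and 15.4% were called lower in the same comparisons, and 12.2%, 9.97% and 18.2% were called higher. The median log2 change of the 10 genes was −1.65, −0.87 and −2.28, beside −0.01, −0.01 and −0.04 over all genes tested. The 8 genes that fell in ATP4B-DTR also fell in GIF/ATP4B-DTR, namely Atp4a, Atp4b, Slc26a7, Slc26a9, Slc4a2, Clic6, Kcnj15 and Kcnj16. In bulk mucosa, fewer parietal cells and less RNA per parietal cell cannot be told apart. Because the lines share the same 2 control samples, their changes are set side by side and no likeness between lines is drawn from them. The share of all genes separated in CPM is not given for any line against control, or for GIF/ATP4B-DTR against GIF-DTR. Statements below that groups do not overlap there describe single genes only.

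**Figure D1:**
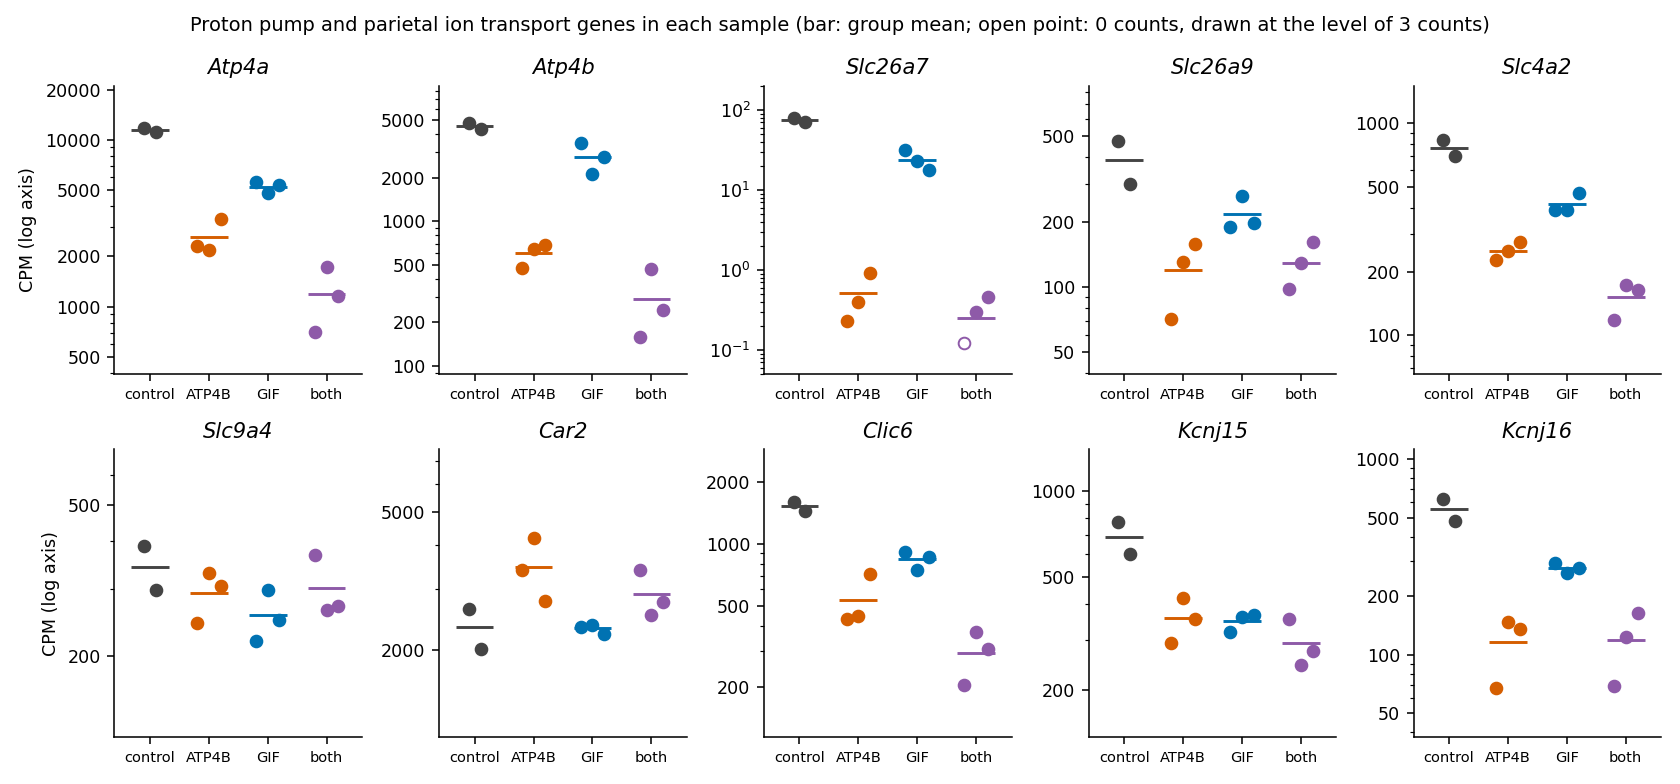
Level of each of the 10 genes in each sample, in TMM-scaled CPM on a log axis that differs between panels. Points are samples, bars are group means, "both" is GIF/ATP4B-DTR, and the open point marks a sample with 0 counts drawn at the level of 3 counts. Atp4a, Atp4b, Slc4a2 and Clic6 step down from control through GIF-DTR and ATP4B-DTR to GIF/ATP4B-DTR with no overlap, Slc26a7 nearly vanishes where ATP4B-DTR is carried, and Slc9a4 overlaps between all groups. The share of all genes with all groups apart is not given here.

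The pump subunits come before the transporters that serve them. Atp4a lies on the + strand of mouse chr7:30712209-30725534 (mm10) and encodes the catalytic subunit. It stood at 11690 and 11129 CPM in controls 1 and 2, at 2302, 2188 and 3352 in ATP4B-DTR 1 to 3, at 5555, 4788 and 5337 in GIF-DTR 1 to 3, and at 710, 1719 and 1158 in GIF/ATP4B-DTR 1 to 3. No 2 groups overlapped, and control was highest and GIF/ATP4B-DTR lowest. Against control, Atp4a fell by 2.13 ± 0.32 log2 units (SE) in ATP4B-DTR (adjusted p = 0.00146), by 1.13 ± 0.32 in GIF-DTR (adjusted p = 0.0338) and by 3.25 ± 0.33 in GIF/ATP4B-DTR (adjusted p = 7.47e-05), in 3 of 3 samples each. The group means in the lines were 22.9%, 45.8% and 10.5% of the control mean. Even at its lowest, Atp4a remained far above the level of 3 counts.

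Atp4b, on the − strand of chr8:13386205-13396825, encodes the subunit that brings the pump to the membrane. It stood at 4786 and 4365 CPM in control, at 475, 641 and 683 in ATP4B-DTR, at 3470, 2136 and 2784 in GIF-DTR, and at 158, 468 and 243 in GIF/ATP4B-DTR. Again no groups overlapped, although the highest GIF/ATP4B-DTR sample came close to the lowest ATP4B-DTR sample. Atp4b fell by 2.93 ± 0.38 log2 units in ATP4B-DTR (adjusted p = 0.000835) and by 3.98 ± 0.40 in GIF/ATP4B-DTR (adjusted p = 7.91e-05). In GIF-DTR its change of −0.71 ± 0.37 did not pass (adjusted p = 0.224, 95% interval −1.53 to 0.11). As shares of the control mean, ATP4B-DTR had 13.1%, GIF-DTR 61.1% and GIF/ATP4B-DTR 6.33%.

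The subunits did not keep a fixed ratio. Atp4a CPM divided by Atp4b CPM was 2.44 and 2.55 in control, 4.85, 3.42 and 4.91 in ATP4B-DTR, 1.6, 2.24 and 1.92 in GIF-DTR, and 4.50, 3.67 and 4.76 in GIF/ATP4B-DTR. All 6 samples that carry ATP4B-DTR were above all 5 that do not. This ratio lies within a library and does not depend on scaling between libraries. The mean difference between carriers and the others was 1.02 log2 units (SD 0.23 in carriers and 0.28 in the others), with an exact two-sided permutation p of 0.00433, which is the smallest that 6 against 5 samples can give. That grouping was chosen after the values were seen. Between single genotypes, 2 against 3 samples cannot go below p = 0.2 and 3 against 3 cannot go below p = 0.1 in the exact permutation test. The GIF-DTR samples were all below the controls, by 0.39 on the log2 scale (exact permutation p = 0.2). The Atp4b gene is the namesake of the ATP4B-DTR line, and whether the construct alters Atp4b itself was not tested.

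Relative to its level in control, Slc26a7 showed the widest range of the 10 genes. It lies on the − strand of chr4:14502430-14621805 and encodes an anion transporter of the parietal cell basolateral membrane. Its level was 78.3 and 71.4 CPM in control, 31.4, 22.9 and 17.9 in GIF-DTR, 0.233, 0.395 and 0.911 in ATP4B-DTR, and 0, 0.299 and 0.463 in GIF/ATP4B-DTR. In counts, the controls had 1743 and 1287, the ATP4B-DTR samples 5, 9 and 22, and the GIF/ATP4B-DTR samples 0, 7 and 13. The 0 allows up to 0.121 CPM in that library, counting error only. The lines with ATP4B-DTR overlapped each other and were far below both other groups. Slc26a7 fell by 7.15 ± 0.58 log2 units in ATP4B-DTR (adjusted p = 0.000125), by 1.64 ± 0.44 in GIF-DTR (adjusted p = 0.0325) and by 8.14 ± 0.62 in GIF/ATP4B-DTR (adjusted p = 3.18e-05). The means were 0.686%, 32.1% and 0.340% of control, and at so few counts the fitted changes depend on the small prior that edgeR adds.

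Slc26a9, on the + strand of chr1:131744022-131771504, encodes a chloride channel and transporter of gastric epithelium. It was 474 and 301 CPM in control, 71.4, 131 and 159 in ATP4B-DTR, 190.5, 265 and 198.5 in GIF-DTR, and 98.6, 129 and 162 in GIF/ATP4B-DTR. Every line lay below both controls, while ATP4B-DTR and GIF/ATP4B-DTR overlapped. It fell by 1.68 ± 0.33 log2 units in ATP4B-DTR (adjusted p = 0.00552) and by 1.58 ± 0.33 in GIF/ATP4B-DTR (adjusted p = 0.00417). The GIF-DTR change of −0.83 ± 0.33 did not pass (adjusted p = 0.109), although it did by DESeq2's Wald test (adjusted p = 0.0459, and 0.0459 to 0.501 over all alternatives).

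Slc4a2, on the + strand of chr5:24423837-24440950, encodes the basolateral chloride-bicarbonate exchanger AE2. Its level was 836 and 702 CPM in control, 226, 249.4 and 274 in ATP4B-DTR, 392, 389 and 468 in GIF-DTR, and 118, 173 and 163 in GIF/ATP4B-DTR. No groups overlapped. Slc4a2 fell in all 3 lines (−1.62 ± 0.18, −0.89 ± 0.18 and −2.35 ± 0.18 log2 units), at adjusted p-values of 0.000336, 0.00878 and 1.77e-05. Its exons overlap those of Fastk on the opposite strand and its counts were fractional in all 11 samples, and what part shared reads have in its level was not tested.

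Clic6, on the + strand of chr16:92485736-92541243, encodes a chloride intracellular channel protein also known as parchorin, which is abundant in water- and acid-secreting epithelia. It was 1604 and 1437 CPM in control, 431, 447.2 and 713 in ATP4B-DTR, 916, 748 and 864 in GIF-DTR, and 206, 373 and 309 in GIF/ATP4B-DTR. The groups stood in the same order as for Atp4a and did not overlap, but the highest ATP4B-DTR sample came near the lowest GIF-DTR sample. Clic6 fell by 1.52 ± 0.26 log2 units in ATP4B-DTR (adjusted p = 0.00278), by 0.85 ± 0.26 in GIF-DTR (adjusted p = 0.0471) and by 2.36 ± 0.27 in GIF/ATP4B-DTR (adjusted p = 0.000134).

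The potassium channel subunits come next. Kcnj15, on the + strand of chr16:95257558-95300260, stood at 776 and 599 CPM in control, 292.5, 423 and 356 in ATP4B-DTR, 320.5, 363 and 368 in GIF-DTR, and 355, 246 and 275 in GIF/ATP4B-DTR. The 3 lines overlapped one another and all lay below the controls. Kcnj15 fell in every line (−0.94 ± 0.20, −0.97 ± 0.20 and −1.24 ± 0.20 log2 units in the same order), at adjusted p-values of 0.00708, 0.00899 and 0.00087.

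Kcnj16, on the + strand of chr11:110968033-111027968, encodes a subunit that forms channels with partners such as the products of Kcnj15 and Kcnj10. It was 625 and 481 CPM in control, 67.8, 146 and 135 in ATP4B-DTR, 294, 263 and 277 in GIF-DTR, and 69.1, 123 and 163 in GIF/ATP4B-DTR. The GIF-DTR samples sat between the controls and the overlapping lines with ATP4B-DTR. Kcnj16 fell by 2.25 ± 0.36 log2 units in ATP4B-DTR (adjusted p = 0.00228) and by 2.22 ± 0.36 in GIF/ATP4B-DTR (adjusted p = 0.00111), and its GIF-DTR change of −0.99 ± 0.35 did not pass (adjusted p = 0.0811). That change passed by DESeq2's Wald test (adjusted p = 0.0235) and in edgeR with only the compared groups (adjusted p = 0.0123), and its adjusted p ran from 0.0123 to 0.307 over all alternatives. Kcnj10, the other partner named here, was at 1.40 CPM or less in every sample. Counts of Kcnj16 were fractional in all 11 samples and those of Kcnj15 in 8, and an exon of Kcnj15 overlaps an antisense gene model.

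Slc9a4 and Car2 were not called in any line. Slc9a4, on the + strand of chr1:40580081-40630725, encodes the basolateral sodium-proton exchanger NHE4. It was 389 and 297 CPM in control, 244, 330 and 306 in ATP4B-DTR, 219, 299 and 248 in GIF-DTR, and 369, 264 and 271 in GIF/ATP4B-DTR. All 4 groups overlapped. Its exons overlap unnamed antisense gene models. The changes were −0.23 ± 0.21 (95% interval −0.68 to 0.23, adjusted p = 0.466), −0.43 ± 0.21 (−0.88 to 0.02, adjusted p = 0.181) and −0.19 ± 0.21 (−0.64 to 0.26, adjusted p = 0.504).

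Car2, on the + strand of chr3:14886273-14900770, encodes a cytosolic carbonic anhydrase that is also found in surface mucous cells and red blood cells. Its level was 2627 and 2015 CPM in control, 3403, 4201 and 2762 in ATP4B-DTR, 2334, 2366 and 2217 in GIF-DTR, and 3404, 2513 and 2747 in GIF/ATP4B-DTR. Every ATP4B-DTR sample was above both controls, whereas the other lines overlapped control. That overlap depended on the scaling: in the length-scaled units introduced below, without TMM factors, Car2 was 1941 and 1561 in control, 2114 to 2503 in GIF-DTR and 2443 to 3491 in GIF/ATP4B-DTR, so every line sample was above both controls. On the TMM scale, the ATP4B-DTR change of 0.57 ± 0.23 log2 units did not pass (95% interval 0.08 to 1.07, adjusted p = 0.0938), nor did those of −0.01 ± 0.22 in GIF-DTR (−0.50 to 0.48, adjusted p = 0.983) and 0.32 ± 0.22 in GIF/ATP4B-DTR (−0.18 to 0.81, adjusted p = 0.300). Car2 in ATP4B-DTR passed when ATP4B-DTR 3 was left out (0.71, adjusted p = 0.04998) and by DESeq2's Wald test, and over all alternatives its adjusted p ran from 0.0204 to 0.397. Red blood cell markers (7 genes) summed to 31.7 to 67.0 CPM in control, 12.5 to 21.4 in ATP4B-DTR, 34.3 to 95 in GIF-DTR and 9.72 to 40.1 in GIF/ATP4B-DTR, and 0 of the 5 tested were called in any line, with Slc4a1 at 0 in every ATP4B-DTR and GIF-DTR sample. The summed pit cell markers (4 genes) were 76910 to 121300, 43400 to 94530, 67310 to 91230 and 81620 to 94840 CPM in the same order. Their part in the Car2 level was not tested.

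**Figure D2:**
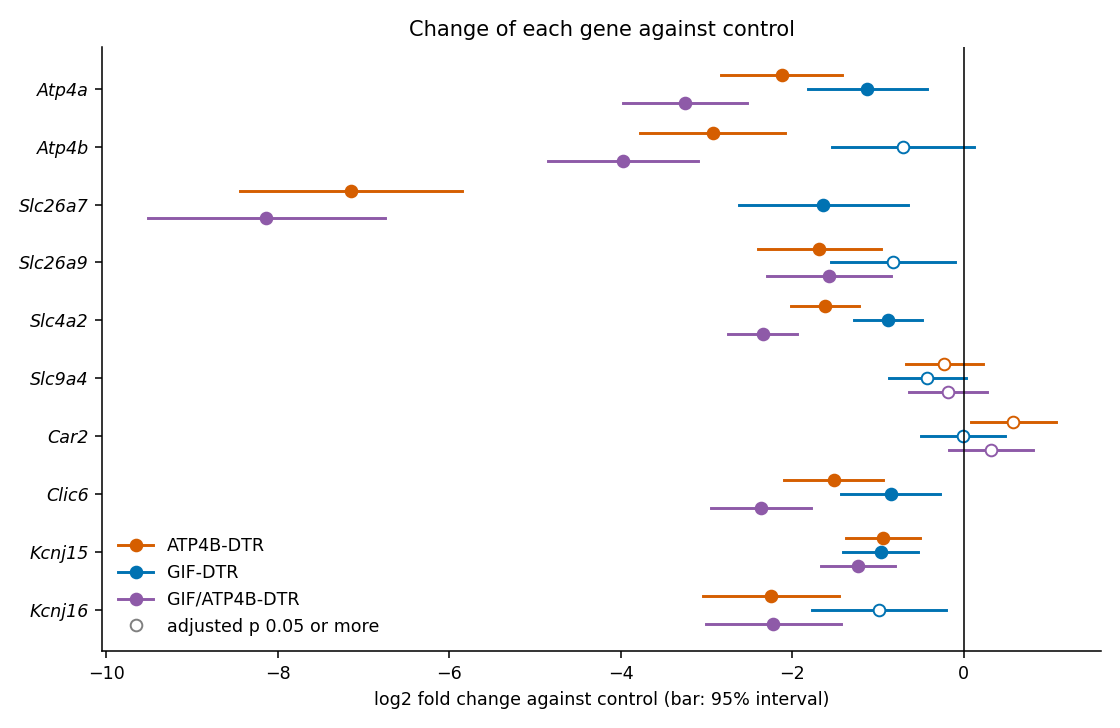
Log2 fold change of each gene against control in each line, with 95% intervals, from the edgeR fit over all 11 samples. Filled points have an adjusted p under 0.05. Slc26a7 in the lines with ATP4B-DTR lies beyond −7, and the Slc9a4 and Car2 points are all open.

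The GIF-DTR calls were the least secure. Against control, 5 genes were called with all samples, 0 without control 1, 2 without control 2, 3 without GIF-DTR 1, 2 without GIF-DTR 2 and 2 without GIF-DTR 3. Slc4a2 and Kcnj15 were lost when control 1 was left out (log2 changes −0.75 and −0.77, adjusted p = 0.0612 and 0.0704). Over all alternatives their adjusted p ran from 4.16e-05 to 0.0792 for Slc4a2 and from 2.27e-05 to 0.0704 for Kcnj15. With a covariate for Y-linked expression 0 genes were called, and the changes of the 5 genes lay between −1.10 for Slc4a2 and −3.08 for Slc26a7. Y-linked expression differed strongly within a genotype only in ATP4B-DTR (182.5 CPM in sample 1, 4.92 and 2.73 in samples 2 and 3). The covariate rests mainly on that contrast, so these values cannot separate GIF-DTR from Y-linked expression. Atp4a and Clic6 were lost without any 1 control or GIF-DTR sample, and Clic6 also without robust moderation. Slc26a7 was lost without any of these samples but GIF-DTR 1, by DESeq2's Wald test and with no filter on low counts. In ATP4B-DTR, Kcnj15 was lost without control 1 (−0.74, adjusted p = 0.0585, range over alternatives 2.76e-05 to 0.0650).

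GIF-DTR and ATP4B-DTR were then compared directly. Of the 10 genes, 2 were higher in GIF-DTR, beside 0.403% of all genes tested. Slc26a7 was higher by 5.51 ± 0.54 log2 units (adjusted p = 0.00272) and Atp4b by 2.22 ± 0.35 (adjusted p = 0.0248). The Atp4b difference was lost when ATP4B-DTR 1, ATP4B-DTR 2, GIF-DTR 1 or GIF-DTR 3 was left out, at 2.08, 2.27, 2.04 and 2.23 log2 units (adjusted p = 0.151, 0.122, 0.101 and 0.0924, from 7.9e-09 to 0.151 over all alternatives). It was also lost with the Y-linked covariate (2.06, adjusted p = 0.145). A further 5 genes were higher in every GIF-DTR sample than in any ATP4B-DTR sample without being called, namely Atp4a, Slc26a9, Slc4a2, Clic6 and Kcnj16, so that 7 of the 10 were separated in this direction, beside 9.27% of all genes tested. Their differences ran from 0.67 ± 0.24 for Clic6 to 1.26 ± 0.33 for Kcnj16. Car2 was lower in every GIF-DTR sample, by 0.58 ± 0.20, and was not called (adjusted p = 0.322). DESeq2's Wald test called 6 of the 10, including Car2, beside 2.58% of the genes it tested. Kcnj15 differed by −0.03 log2 units, with an interval of −0.42 to 0.37.

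Adding GIF-DTR to ATP4B-DTR changed 0 of the 10 genes past the threshold, beside 0% of all 14889 genes tested. At an unadjusted p under 0.05 there were 4 of the 10, Atp4a, Atp4b, Slc4a2 and Clic6, and 1554 genes in all. DESeq2's Wald test called 3 of the 10, beside 1.91% of the genes it tested. The edgeR differences of those 4 genes were −1.13 ± 0.29, −1.05 ± 0.34, −0.72 ± 0.16 and −0.84 ± 0.24 log2 units, and each of the 4 was lower in all GIF/ATP4B-DTR samples than in any ATP4B-DTR sample, as were 8.12% of all genes tested. Slc26a9 (0.11, interval −0.55 to 0.76) and Kcnj16 (0.03, interval −0.69 to 0.74) overlapped between these lines.

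Adding ATP4B-DTR to GIF-DTR lowered 5 of the 10 genes, beside 2.19% of all genes tested. They were Slc26a7 (−6.50 ± 0.59), Atp4b (−3.27 ± 0.37), Atp4a (−2.13 ± 0.30), Clic6 (−1.51 ± 0.24) and Slc4a2 (−1.46 ± 0.17), with adjusted p-values from 0.000501 to 0.00693. Kcnj16 missed the threshold (−1.23 ± 0.33, adjusted p = 0.0867), but passed by DESeq2's Wald test (adjusted p = 0.00344, and 0.00344 to 0.937 over all alternatives). Slc26a9 (−0.75 ± 0.30, adjusted p = 0.226) and Car2 (0.32 ± 0.20, adjusted p = 0.401) were not called. These lines also differ in Y-linked expression. The covariate for it rests mainly on ATP4B-DTR 1 against ATP4B-DTR 2 and 3, and with it 0 of the 10 were called. The log2 differences were then −4.96 for Slc26a7, −2.76 for Atp4b, −1.81 for Atp4a, −1.04 for Clic6 and −1.23 for Slc4a2.

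The interaction asks whether the change with both receptors departs from the sum of the changes with each. It was called for 0 of the 10 genes, beside 0.651% of all genes tested, and reached an unadjusted p under 0.05 for Kcnj15 (0.68 ± 0.27 log2 units, adjusted p = 0.249). DESeq2's Wald test also called 0, beside 5.32% of the genes it tested. For Atp4a the departure was 0.00 ± 0.43 (interval −0.95 to 0.94) and for Clic6 0.01 ± 0.36 (interval −0.78 to 0.79), intervals that still allow departures of nearly 1 log2 unit.

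Dividing each gene by the geometric mean of Atp4a and Atp4b in the same sample showed how far the others followed the pump. In ATP4B-DTR, 6 of the 8 remaining genes were higher relative to the pump than in either control, Slc26a7 was lower and Kcnj16 overlapped. Of all other genes tested, 92.9% were also higher on this scale and 0.47% were lower. In GIF/ATP4B-DTR 7 were higher and Slc26a7 was lower, beside 96.8% and 0.322% of all other genes. In GIF-DTR, Car2 was higher, Slc26a7 was lower and the other 6 overlapped control, beside 72.7% higher and 1.79% lower among all other genes. These are descriptions with no test.

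Relative to the pump, Slc26a7 was lower than the control mean by 4.69 log2 units in ATP4B-DTR (SD 0.62), by 0.74 in GIF-DTR (SD 0.36) and by 4.76 in GIF/ATP4B-DTR (SD 1.35, with the library at 0 set by an offset of 0.05 CPM). Clic6 and Slc4a2 moved 0.99 ± 0.16 and 0.93 ± 0.14 above it in ATP4B-DTR (SD). In GIF-DTR the same genes lay 0.08 (SD 0.08) and 0.05 (SD 0.26) above the control mean and overlapped control. Car2 shifted most in the other direction, by 3.12 log2 units in ATP4B-DTR (SD 0.52), by 0.94 in GIF-DTR (SD 0.25) and by 4.05 with both receptors (SD 0.93). With Atp4a alone as the measure of the pump, the ATP4B-DTR shifts of Slc26a9, Slc4a2 and Clic6 shrank to 0.43, 0.53 and 0.60, and Slc26a9 then overlapped control. On that scale the GIF-DTR shifts of Clic6 and Slc4a2 were 0.27 (SD 0.04) and 0.24 (SD 0.16), and 3 genes (Slc9a4, Car2 and Clic6) were higher there than in either control, beside 80.5% of all other genes. With Atp4b alone, the GIF-DTR shifts of Clic6 and Slc4a2 were −0.12 (SD 0.21) and −0.15 (SD 0.37), and the ATP4B-DTR shifts of Slc26a9, Slc4a2 and Clic6 grew to 1.22, 1.33 and 1.39.

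**Figure D3:**
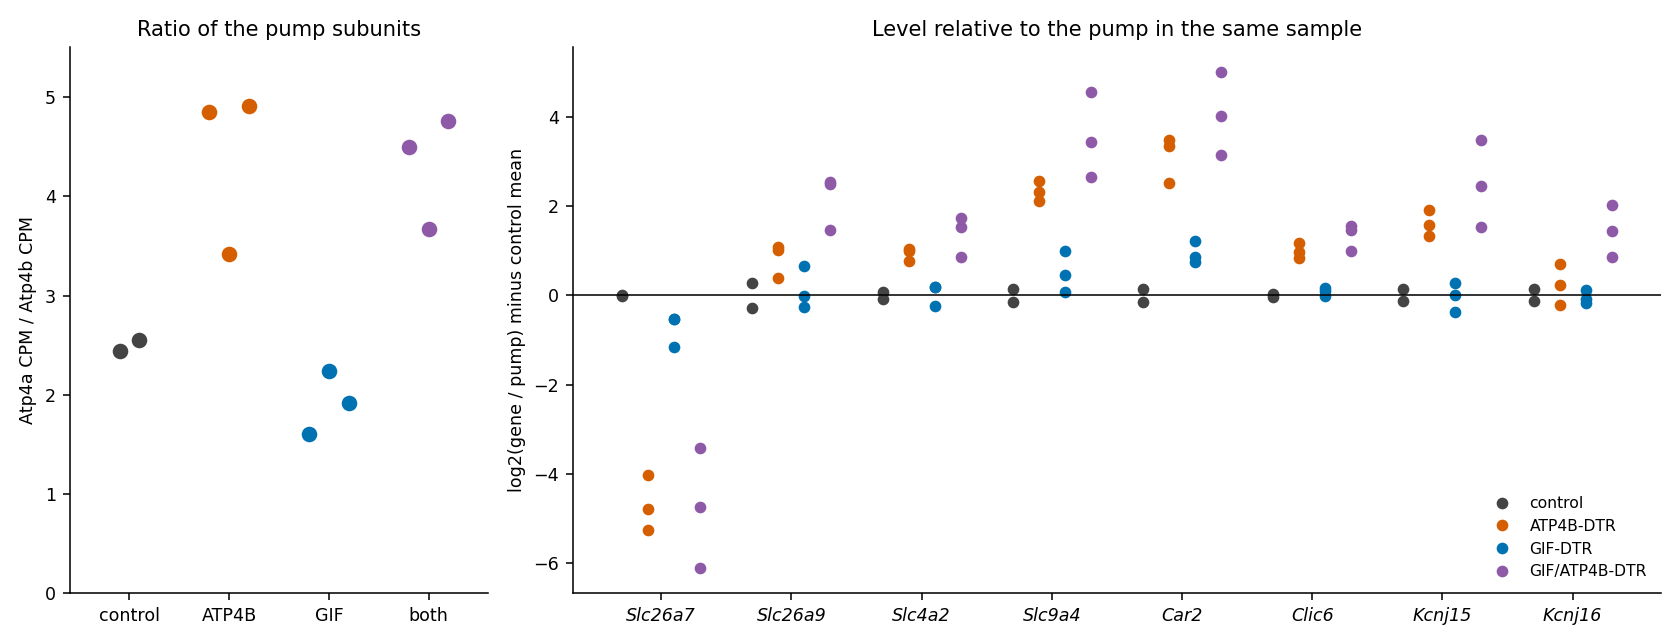
Left, the ratio of Atp4a to Atp4b CPM in each sample on an axis from 0. Right, log2 of each gene over the geometric mean of Atp4a and Atp4b in the same sample, with the control mean subtracted, where points are samples. Samples with ATP4B-DTR have ratios of 3.42 to 4.91 and the others 1.6 to 2.55, and Slc26a7 is the gene whose samples lie below 0 in all 3 lines.

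Levels can be compared between genes only per length, so counts were divided by the length of each gene's longest annotated transcript and rescaled to a common total (TPM-like units, without TMM factors). In control, Atp4b (4488 TPM-like units) and Atp4a (4428) led, and their ranges of 4388 to 4589 and 4424 to 4432 overlapped. They were followed by Car2 (1751), Clic6 (547), Slc4a2 (244), Kcnj16 (201), Kcnj15 (163), Slc9a4 (117), Slc26a9 (110) and Slc26a7 (19.6). Among the later neighbours in this order, the ranges of the 2 controls overlapped for Slc9a4 and Slc26a9 and for no other pair. Car2 made up 14.5% of the summed level of the 10 genes in control.

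In ATP4B-DTR, Car2 came first at 3457 TPM-like units, 54.4% of the sum, followed by Atp4a (1385) and Atp4b (793). In GIF/ATP4B-DTR Car2 held 65.6% (2902), with Atp4a at 610 and Atp4b at 373. GIF-DTR kept the control order at the top, with Atp4b at 3644, Atp4a at 2718 and Car2 at 2341, or 24% of the sum. Slc26a7 was last in every group. The sum over the 10 genes was 11670 to 12470 TPM-like units in control, 9098 to 10440 in GIF-DTR, 5775 to 7013 in ATP4B-DTR and 4260 to 4583 in GIF/ATP4B-DTR, with no overlap between groups. In TMM-scaled CPM, without the division by length, the sums were 21400 to 23890, 11640 to 13720, 7513 to 8757 and 5487 to 6008 in the same order, so that GIF-DTR lay further below control on that scale.

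**Figure D4:**
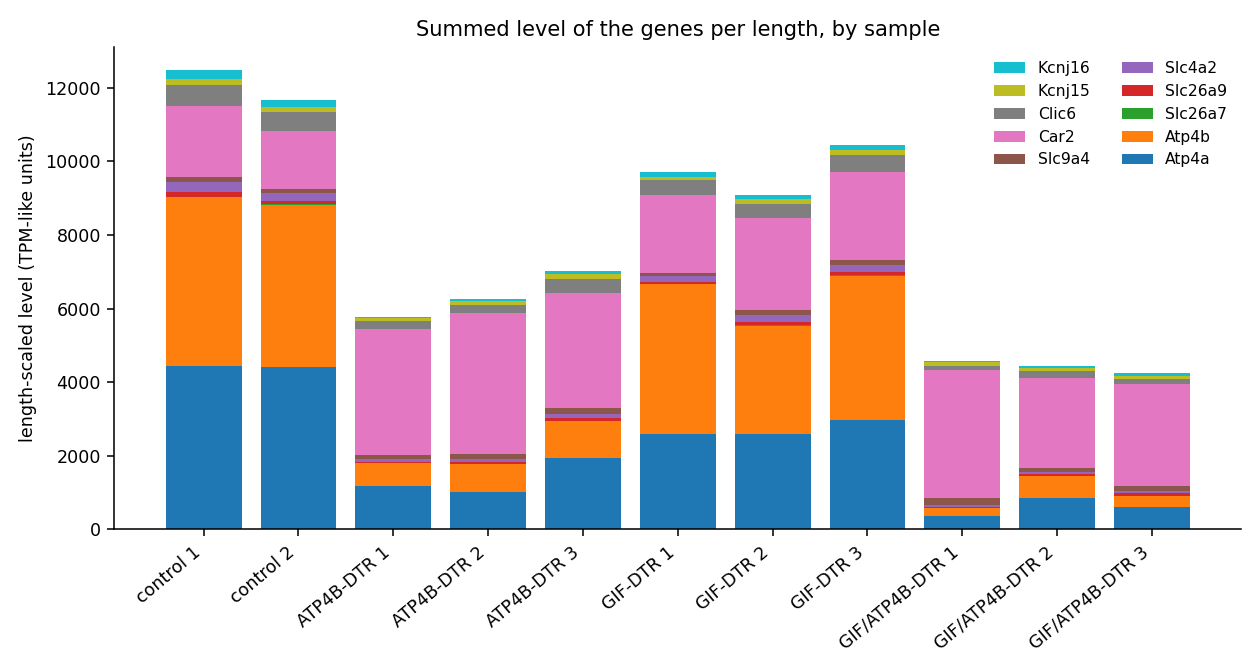
Stacked length-scaled level of the 10 genes in each sample, in TPM-like units from 0, with 1 colour per gene. The summed height is at least 11670 in the controls and at most 4583 in GIF/ATP4B-DTR, and Car2 is the largest segment in all 6 samples that carry ATP4B-DTR.

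RefSeq promoter windows on GRCm38.p6, the build that mm10 names, covered 5 of the 10 genes with 9 windows. Each ran from 250 bases before a transcript start to 50 after it and was searched on both strands for AAGGTCA, which the estrogen-related receptors such as Esrrb bind, and for AGATAA, which GATA factors bind. AAGGTCA was in 1 of the 9 windows (Kcnj16), beside 4.72% of 32851 promoter windows of the same length, and AGATAA was in 3 of the 9 (Slc26a9, Kcnj16 and Kcnj15), beside 11.2%. The 250 bases before the start and the first transcribed base are shown for the pump gene and for the transport genes in which either motif was found, on the + strand, in lower case with the motif or its reverse complement in capitals. They are Atp4a at chr7:30711959-30712209, Slc26a9 at chr1:131743772-131744022, Kcnj16 at chr11:110967783-110968033 and Kcnj15 at chr16:95257308-95257558.
Atp4a: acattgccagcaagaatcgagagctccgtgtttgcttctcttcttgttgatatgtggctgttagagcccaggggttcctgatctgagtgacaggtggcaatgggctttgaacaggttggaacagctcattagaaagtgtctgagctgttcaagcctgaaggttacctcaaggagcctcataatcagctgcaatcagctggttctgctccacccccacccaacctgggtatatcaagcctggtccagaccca
Slc26a9: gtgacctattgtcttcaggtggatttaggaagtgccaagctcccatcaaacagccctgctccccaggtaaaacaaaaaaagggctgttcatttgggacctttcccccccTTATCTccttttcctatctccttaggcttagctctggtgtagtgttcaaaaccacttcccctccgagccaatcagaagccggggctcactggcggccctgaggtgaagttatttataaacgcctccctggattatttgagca
Kcnj16: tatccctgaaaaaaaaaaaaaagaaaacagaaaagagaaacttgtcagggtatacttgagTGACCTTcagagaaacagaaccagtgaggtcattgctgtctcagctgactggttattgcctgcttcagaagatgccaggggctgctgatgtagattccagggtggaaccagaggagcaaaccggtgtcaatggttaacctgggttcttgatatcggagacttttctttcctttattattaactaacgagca
Kcnj15: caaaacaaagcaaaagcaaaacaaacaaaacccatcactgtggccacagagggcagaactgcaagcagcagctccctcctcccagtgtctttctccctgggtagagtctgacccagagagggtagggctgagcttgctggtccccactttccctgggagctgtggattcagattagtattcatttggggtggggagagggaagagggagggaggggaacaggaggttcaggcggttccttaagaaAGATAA
Counted from the start site, the capitals lie at −141 in Slc26a9 and −190 in Kcnj16, both on the opposite strand, and at −5 in Kcnj15. Another Kcnj16 window, beginning at position 111019335, held AGATAA at −187. Atp4a held neither run of letters in its window. A match describes the letters only.

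Genes outside the set whose profiles lay closest to the pump were found by the root mean square difference from the mean log2 profile of Atp4a and Atp4b over the 11 samples, each gene centred on its own mean. The closest 6 with a mean of at least 8 CPM were Kank1 (0.22 log2 units), Gga2 (0.25), Dbn1 (0.25), Apoa4 (0.25), Prnp (0.30) and Sdr9c7 (0.30). Each pump subunit was itself 0.28 from their mean, by construction. The other members lay further off, from Clic6 (0.59), Slc4a2 (0.63), Kcnj16 (0.70) and Slc26a9 (0.95) to Kcnj15 (1.17), Slc9a4 (1.47), Car2 (1.64) and Slc26a7 (2.10). Kank1, for example, was 101 and 98.6 CPM in control, 17.3, 18.2 and 28.0 in ATP4B-DTR, 71.5, 46.7 and 48.6 in GIF-DTR, and 6.98, 13.7 and 10.4 in GIF/ATP4B-DTR. Its groups, like those of Atp4a, did not overlap, but Kank1 was picked for its closeness to the pump over these same samples. That likeness is therefore no separate result.

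Other genes of ion transport were read from 6 lists holding 73 genes, of which 62 were tested. In ATP4B-DTR 13 were lower and 7 higher, with a median of −0.33 log2 units. In GIF-DTR 9 were lower and 5 higher (median −0.20), and in GIF/ATP4B-DTR 22 were lower and 11 higher (median −0.46). These medians were all nearer 0 than those of the 10 genes. The lower genes were 21%, 14.5% and 35.5% of those tested, beside 9.39%, 6.82% and 15.4% of all genes. The higher genes were 11.3%, 8.06% and 17.7%, near the 12.2%, 9.97% and 18.2% of all genes. The same shares of all genes are the background for each list that follows.

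Among P-type pump subunits (6 tested), the Na+/K+-ATPase gene Atp1b1 fell by 0.75 ± 0.16 log2 units in GIF-DTR (adjusted p = 0.0116) and by 0.82 ± 0.16 in GIF/ATP4B-DTR (adjusted p = 0.00265). Among potassium channels and cotransporters (15 tested), the ATP4B-DTR line had 4 lower, the GIF-DTR line 2 and the GIF/ATP4B-DTR line 7, with 2, 1 and 3 higher. The cotransporter gene Slc12a7 fell in all 3 lines, at −1.37 ± 0.17, −0.59 ± 0.17 and −1.32 ± 0.17 log2 units. The accessory subunit gene Kcne1 fell from 20.8 and 14.7 CPM in control to between 0.373 and 2.28 in the samples with ATP4B-DTR, and was 23.5, 13.1 and 13.9 in GIF-DTR. Kcnq1 and Kcne2, which form the luminal potassium channel of the parietal cell, passed in GIF/ATP4B-DTR (−1.11 ± 0.26 and −1.22 ± 0.33, adjusted p = 0.00812 and 0.0164). They did not pass in ATP4B-DTR (−0.33 and −0.21) or GIF-DTR (−0.20 and −0.12). Kcne3 rose in every line, from 0.135 and 0.610 CPM in control to between 14.95 and 92.8 CPM in the lines. Kcnk1 rose by 0.98 ± 0.17 log2 units with ATP4B-DTR alone and by 1.29 ± 0.17 with both receptors, where Kcnn4 rose by 0.62 ± 0.18.

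Of the other SLC26 and SLC4 anion transporters (14 tested), 1 was lower in each of the lines with a single receptor and 3 with both, while 2, 2 and 3 were higher in the same order, all near the shares of all genes. Slc26a6 fell by 1.97 ± 0.40 log2 units in ATP4B-DTR and by 2.29 ± 0.40 in GIF/ATP4B-DTR, while the sodium-bicarbonate cotransporter gene Slc4a7 rose by 0.55 ± 0.13 and 0.63 ± 0.13. Among sodium-proton exchangers (8 tested), 1, 1 and 3 were lower and 0, 1 and 1 higher, numbers too small to set apart from those shares. Slc9a3 was higher in every line sample (3.94 to 55 CPM) than in control (1.17 and 1.22 CPM), and passed in GIF-DTR and GIF/ATP4B-DTR (adjusted p = 0.0493 and 0.046) but not in ATP4B-DTR (adjusted p = 0.0544).

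Carbonic anhydrases other than Car2 (11 tested) were lower in 4, 2 and 5 cases and higher in 2, 0 and 2, the higher ones near the shares of all genes. Car9, a membrane-bound form, fell from a mean of 308.5 CPM in control to 74.4 with ATP4B-DTR alone and 75.2 with both receptors (adjusted p = 0.0287 and 0.0201), and the mitochondrial form Car5b fell in every line (−1.5 ± 0.17, −0.99 ± 0.17 and −1.99 ± 0.17 log2 units). Car13, cytosolic like Car2, rose by 0.60 ± 0.17 and 0.71 ± 0.18 in the lines with ATP4B-DTR. Among chloride channels (8 tested), Clcn3 and Clic4 fell in every line, with Clcn3 at −0.73 ± 0.13, −0.75 ± 0.13 and −0.89 ± 0.13 log2 units. Cftr, the cystic fibrosis chloride channel, rose from 0.359 and 0.277 CPM in control to between 8.78 and 41.2 in the lines.

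**Figure D5:**
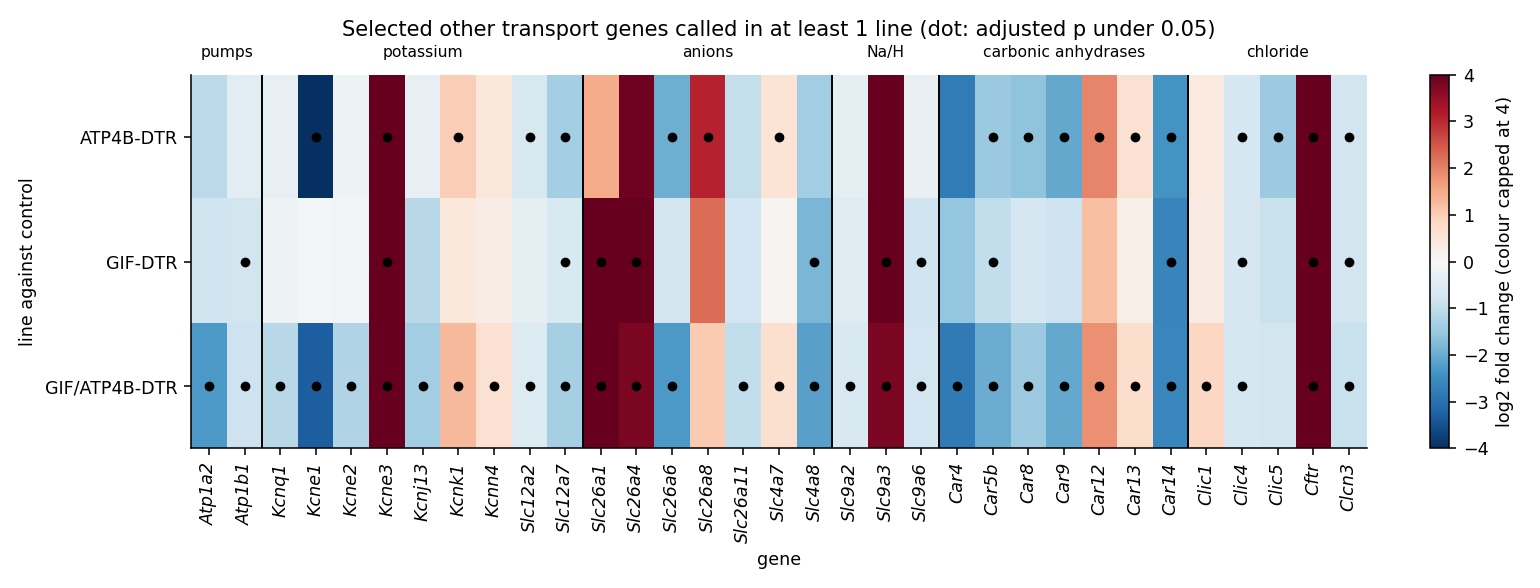
Log2 fold change against control, as colour capped at 4 in either direction, of 33 of the 35 other transport genes called in at least 1 line. Rows are lines, columns are genes grouped by list, and dots mark an adjusted p under 0.05. Kcne3 and Cftr are dark red in all 3 rows, and Kcne1 is dark blue in the rows with ATP4B-DTR and pale in GIF-DTR.

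Genes that carry the pump to the apical membrane were read from a list of 13. The ATP4B-DTR line had 2 lower, the GIF-DTR line 1 and the GIF/ATP4B-DTR line 3, and none was higher (medians −0.15, −0.30 and −0.34 log2 units), beside the 9.39%, 6.82% and 15.4% of all genes called lower. The 3 were Ezr, the membrane-cytoskeleton linker ezrin, Rab11fip2 and Vamp2. Ezr fell in every line (−0.60 ± 0.18, −0.65 ± 0.18 and −0.88 ± 0.18 log2 units). Many of these genes are also expressed by other epithelial cells. Among 9 parietal cell genes outside ion transport, 4, 5 and 5 fell, with Ezr counted here again, and 1, 1 and 2 rose. The nuclear receptor gene Esrrb fell, with changes of −4.58 ± 0.46, −1.32 ± 0.40 and −5.02 ± 0.47 log2 units, as did the histamine receptor gene Hrh2, with −1.79 ± 0.28, −0.97 ± 0.27 and −2.46 ± 0.28. Ppargc1a, a coactivator of mitochondrial genes, rose by 1.27 ± 0.32, 1.07 ± 0.31 and 0.98 ± 0.31. Proliferation genes (4 genes) rose in every line, from a sum of 130.0 to 195 CPM in control to 313 to 548 CPM in the lines. Of the mucous neck cell markers (5 genes), 2, 3 and 3 were called higher and 1 lower in each line, with medians of 1.37, 1.90 and 1.94. Muc6 fell (−2.46 ± 0.52, −3.64 ± 0.53 and −5.18 ± 0.57 log2 units) and Aqp5 rose (2.40 ± 0.34, 2.90 ± 0.35 and 3.18 ± 0.35) in the lines. The lists for leukocytes (6 tested), endothelium (4) and pancreas acini (4) had at most 1 gene called in each direction in any line. The controls themselves differed, with sums from 17.06 to 54.55 CPM for leukocytes, 5.39 to 57.9 for endothelium and 29.4 to 39.9 for pancreas acini. The endothelial medians were −1.54, −0.47 and −2.41 log2 units in the lines. Of 2 antrum genes tested, Pdx1 rose from a mean of 0.185 CPM in control to 4.33 with GIF-DTR alone and 3.98 with both receptors. In ATP4B-DTR, Pdx1 was not called, although its mean was 3.18 CPM and its samples (0.922 to 7.08) were above both controls. Of 2 squamous forestomach genes tested, Krt13 rose from 0.610 to 11.9 CPM in ATP4B-DTR. The part of all these markers in the levels of the 10 genes was not tested.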

How the data were processed

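Bulk RNA-seq of 11 corpus mucosa samples was grouped by the genotype label. Libraries were stranded and poly(A)-selected, per the labels' protocols. The deposited table holds the authors' expected counts per gene, which need not be whole; 30.7% of nonzero values are fractional. The submitters' processing notes name mm10; the aligner, counter and strand setting are not given in the sources used here, so antisense reads cannot be told apart.

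Expected counts were rounded to whole numbers, whereas the design had assumed whole counts. Symbols were matched for 34582 identifiers (99.2%). Genes were kept by filterByExpr (14889), scaled by TMM and tested with edgeR 4.0.16 (R 4.3.3, quasi-likelihood with robust moderation, 1 coefficient per genotype, all 11 samples), with Benjamini-Hochberg adjustment over all genes tested and a threshold of 0.05. The tests were also run on simulated data, with an outcome that is not reported here. Positions came from GENCODE release M21 (mm10); the version of the Kcnj15 identifier differs there. Exact permutation tests used scipy 1.17.1. Alternatives were DESeq2 1.42.0, DESeq2 size factors, TMM without the 50 most abundant genes, other filters, no robust moderation, only the compared groups, Y-linked expression and leaving out samples. The labels pair no samples.

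The named genes were the 10 members, listed transport genes that passed in a line or were the most abundant of their list, and the 6 profiles nearest the pump; Kcnj10, the non-transport examples and the Atp4a to Atp4b grouping were chosen with values seen. The members and lists were chosen with earlier results of these data known. Floors cover counting error only, since reads carry no molecular identifiers; intervals of log2 changes come from the edgeR fit and include the spread between samples. Protein sequences were not used here, and some of the listed genes are not reported here.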

Additional observations from a re-analysis of the deposited data

Results flagged for a closer look

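GIF-DTR exceeded ATP4B-DTR by 2.22 log2 units for Atp4b and by 5.51 for Slc26a7, so their changes against the same controls differed between these lines by a test of the difference itself (edgeR adjusted p = 0.0248 and 0.00272, higher in 3 of 3 samples each). The Atp4b call was lost under 5 of 15 alternatives, among them the Y-linked covariate (2.06, adjusted p = 0.145), and its adjusted p ran from 7.9e-09 to 0.151. The log2 ratio of Atp4a to Atp4b differed by −1.19 (GIF-DTR minus ATP4B-DTR), because every ATP4B-DTR sample lay above the controls and every GIF-DTR sample below them. For 3 against 3 samples the exact permutation p of 0.1 is the smallest possible, so this ratio difference could not pass a threshold of 0.05.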

How the results depend on the processing

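The 10 genes gave 60 gene-by-comparison results (without the interaction) and 843 values under alternatives. Of these, 793 stayed on the same side of the threshold, 37 lost a call, 13 gained one and 0 called changes reversed. Among the 793 were 16 values, never called, whose sign changed. All 8 calls in GIF/ATP4B-DTR against control held under every alternative run, and 6 of 8 held in ATP4B-DTR, all but Atp4a and Kcnj15. Using only samples with Y-linked expression, where ATP4B-DTR is 1 sample assumed to vary like the others, Atp4a there was −2.31 (edgeR adjusted p = 0.0526, from 2.33e-10 to 0.0526 over alternatives).

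The number of genes called in GIF-DTR against ATP4B-DTR was 6 by DESeq2's Wald test (2.58% of all genes), 1 with at least 10 counts in every sample (Slc26a7 was then not tested), 1 with the Y-linked covariate, and 1 to 2 when a sample was left out. Against control, GIF-DTR had 0 with the covariate and 0 to 3 with a sample left out. Between GIF/ATP4B-DTR and ATP4B-DTR, DESeq2 called 3 (1.91% of all genes). The covariate left 0 in GIF/ATP4B-DTR against GIF-DTR. The cause of these changes was not tested. Leaving out a control leaves 1, assumed to vary like the other groups. No paired analysis was possible because the labels give no shared replicate numbers. Depth limits only Slc26a7, and only where ATP4B-DTR is carried.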
